A study of Rattus norvegicus with 6 samples.

Results

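Mast cell genes were followed in rat pancreas with acute pancreatitis (AP) and in saline controls (CTL). The set held 9 symbols, and 8 of them were found among the 19780 gene symbols of the deposited count table, by an exact match of the symbol. They were Kit, the receptor for stem cell factor, the granule protease genes Cpa3, Cma1, Tpsab1 and Tpsb2, the IgE receptor subunit genes Fcer1a and Ms4a2, and Hdc, the histamine-forming enzyme. Expression of the other symbol, Mcpt1, was not analysed here, and only its upstream sequence was searched. Poly(A) RNA of pancreas from male wild-type Sprague-Dawley rats, an outbred strain, was sequenced in 3 AP and 3 CTL samples. The AP rats were 8 weeks old at purchase and received L-arginine into the peritoneum, and the CTL rats of the same age received saline. The dose and time are stated in 2 ways, as 5 mg/kg for 36 hours in the sample labels and as 2 doses of 2.5 g/kg with sampling at 48 hours in the series design, and which applied is not known. L-arginine in excess injures the acinar cells of the rodent pancreas.

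Mast cells are tissue-resident cells of the blood lineage that mature under the KIT receptor and its ligand. They carry IgE on a surface receptor, store histamine, proteases and proteoglycan in granules, and release them when the receptor is crosslinked. In rodents the connective tissue type makes the chymase Cma1, carboxypeptidase A3 and tryptases, and the mucosal type makes other chymases. Basophils share the IgE receptor, Hdc and Cpa3 with mast cells, and KIT is also carried by interstitial pacemaker cells, melanocytes and blood progenitors.

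The stretches upstream of 3 members are shown because the protease and IgE receptor genes are known in mouse mast cells as targets of the transcription factors GATA2 and MITF, whose binding letters can be looked for in them. Each runs from base -150 to base -45 before the annotated start, 5′ to 3′ in the gene's direction, from RefSeq on build GRCr8. Capitals mark the letters AGATAA or TGATAA on either strand (the GATA motif) and CATGTG or CACGTG on either strand (an E-box).
Cma1, chr15:33390178-33390283, minus strand: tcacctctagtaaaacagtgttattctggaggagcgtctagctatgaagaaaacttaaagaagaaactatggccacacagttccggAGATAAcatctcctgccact
Cpa3, chr2:104673282-104673387, minus strand: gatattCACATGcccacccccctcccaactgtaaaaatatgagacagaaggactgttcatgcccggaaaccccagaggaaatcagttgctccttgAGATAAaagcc
Fcer1a, chr13:88224724-88224829, minus strand: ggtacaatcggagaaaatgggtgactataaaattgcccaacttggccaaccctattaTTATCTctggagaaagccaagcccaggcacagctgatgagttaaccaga
Of the 9 genes, 8 matched an entry in the promoter table (Mcpt1 among them). Within the 250 bases before the start, 4 of these 8 held the GATA motif, namely Cma1, Cpa3, Fcer1a and Mcpt1, and 3 held the E-box, namely Cpa3, Tpsb2 and Fcer1a. Among all 33469 upstream stretches of that length, 16.9% held the GATA motif and 17.1% the E-box. The matches describe letters and are not evidence of binding.

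Across the members, Cma1 was higher in AP pancreas, Kit was lower relative to the middle of all genes but not as a share of reads, and Cpa3 did not pass the test. The remaining 5 members had too few counts to be tested. The members were rare transcripts. Without Kit their counts summed to 211, 366 and 103 in AP replicates 1 to 3 and to 23, 23 and 31 in CTL replicates 1 to 3, in libraries of 17404247 to 18961353 counts in AP and 14453584 to 18196636 in CTL. Whether each sample came from its own animal is not stated, so p-values reflect only how far these samples scatter. In bulk tissue, a change in the number of mast cells and a change in RNA per cell cannot be told apart.

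Levels depended on how libraries were scaled. The 5 measured acinar genes Prss1, Cpa1, Cel, Pnlip and Ctrb1 took 0.584%, 0.613% and 4.33% of the counts in AP replicates 1 to 3 and 31.1%, 33.9% and 31.4% in CTL replicates 1 to 3. TMM scaling, which sets the middle of the tested genes level between libraries, was the main scaling, and counts per 1e6 of the TMM-scaled library size are called normalised CPM. Scaling by library totals raised the median over all tested genes by 2.18 on the log2 scale. A fold change with TMM is therefore relative to the middle gene, and one with library totals is relative to all reads. On the TMM scale 3 counts, the floor used for a count of 0, were worth 0.0740, 0.0746 and 0.0883 normalised CPM in AP replicates 1 to 3 and 0.372, 0.379 and 0.482 in CTL replicates 1 to 3. A rare transcript was thus harder to detect in CTL libraries on this scale.

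Kit, the tyrosine kinase receptor on which mast cells depend, had 171, 183 and 108 counts in AP replicates 1 to 3 and 78, 116 and 168 in CTL replicates 1 to 3. On the TMM scale this was 4.22, 4.55 and 3.18 normalised CPM in AP and 9.68, 14.7 and 27.0 in CTL. Every AP library lay below every CTL library, which held for 33.1% of all tested genes, and the CTL libraries were spread more widely than the AP libraries. Kit fell 4.26-fold (log2 fold change -2.09 ± 0.359 SE, adjusted p = 0.00103 by edgeR's quasi-likelihood test with Benjamini-Hochberg adjustment, n = 3 per group). As a share of all reads the groups overlapped, at 9.43, 9.79 and 6.34 CPM of all reads in AP and 4.53, 6.97 and 12.6 in CTL, and scaling by library totals gave a log2 fold change of 0.09 (adjusted p = 0.808). The fall of Kit is thus a fall relative to the other genes, with no detectable difference in its share of reads.

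Of the 3 members tested, 1 was called higher and 1 lower in AP, where 34.1% of all 13240 tested genes were called higher, 30.5% lower and 64.6% in either direction. With library totals 1 of the 3 was called, Cma1 as higher, where 88.2% of tested genes were called higher, 4.32% lower and 92.5% in either direction. These counts are too small to be read against the background. The tested members passed a filter on low counts, so they do not stand for all members. Cma1, with 3, 0 and 0 counts in CTL, passed it only through its AP libraries. Its entry into the test was thus not independent of its being high in AP. The same holds for other rare genes named below, such as Mcpt9, Il10 and Hrh3.

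Cma1, the chymase of connective tissue mast cells, had 100, 117 and 41 counts in AP replicates 1 to 3 and 3, 0 and 0 in CTL replicates 1 to 3. Normalised levels were 2.47, 2.91 and 1.21 CPM in AP and 0.372, 0 and 0 in CTL. Every AP library stood above every CTL library, which held for 37.8% of all tested genes on this scale. All CTL counts of Cma1 came from replicate 1. The pooled normalised counts differed by a ratio of 16.6 (95% counting interval 5.63 to 81.2), and Cma1 rose in edgeR's quasi-likelihood test with TMM (log2 fold change 3.98 ± 0.865, adjusted p = 0.0037). Scaling by library totals gave 6.07 (adjusted p = 7.92e-05). Cma1 was at least 10.6-fold higher without CTL replicate 1, and the ratio was 10.7 without CTL replicate 2. Leaving out any 1 library kept the call, and the adjusted p of these 6 fits ran from 0.00262 to 0.0161.

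Cpa3, carboxypeptidase A3, which is stored in the same granules and also made by basophils, had 68, 124 and 16 counts in AP and 13, 11 and 30 in CTL. Its normalised levels were 1.68, 3.08 and 0.471 CPM in AP and 1.61, 1.39 and 4.82 in CTL. The groups overlapped, with AP replicate 3 the lowest of all 6 libraries and CTL replicate 3 the highest. Cpa3 did not pass the test (log2 fold change -0.53 ± 0.711, adjusted p = 0.533 by edgeR's quasi-likelihood test). Single libraries moved this value, which was 0.23 without CTL replicate 3 and -1.24 without AP replicate 2. With library totals it was 1.66 (adjusted p = 0.0526).

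The tryptase genes Tpsab1 and Tpsb2, whose products are trypsin-like granule proteases, held few counts. Tpsab1 had 1, 18 and 10 counts in AP replicates 1 to 3 and 0, 1 and 0 in CTL. The ratio of pooled normalised counts was 5.61, with a 95% counting interval of 0.930 to 229 that includes no difference. It was 3.27 without AP replicate 2, 3.57 without CTL replicate 1 and at least 1.20-fold without CTL replicate 2. Tpsb2 had 4 counts, all in AP replicate 2, and none in CTL, which is under the floor on the TMM scale, so no fold is given. These neighbouring tryptases are close copies of each other, and reads that match both could have been split or lost.

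The IgE receptor binds IgE through its alpha chain, encoded by Fcer1a, and amplifies the signal through its beta chain, encoded by Ms4a2. Fcer1a had 3, 18 and 5 counts in AP replicates 1 to 3 and none in any CTL library. With CTL set at 3 counts, the bound on its ratio was 1.68 on the TMM scale. The exact 95% counting interval began lower, at 1.27. The AP levels of 0.0740, 0.448 and 0.147 normalised CPM compare with CTL floors of 0.372 to 0.482. A level like that of AP replicates 1 and 3 would lie under the floor of a CTL library and could have been missed. Without AP replicate 2 no bound above 1 remained, and without 1 CTL library the bound was 1.07 to 1.21. Ms4a2 had 36, 36 and 9 counts in AP and 3, 5 and 0 in CTL, or 0.888, 0.896 and 0.265 normalised CPM in AP against 0.372, 0.632 and 0 in CTL. The groups overlapped on this scale, with a pooled ratio of 1.96 (95% counting interval 0.948 to 4.69), and 3.36 without CTL replicate 2. As CPM of all reads, Ms4a2 stood at 1.99, 1.93 and 0.528 in AP and 0.174, 0.300 and 0 in CTL, with no overlap. That pattern was common, since 88.6% of all tested genes had every AP library above every CTL library on that scale and 37.8% on the TMM scale.

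Hdc, histidine decarboxylase, which makes histamine in mast cells, basophils and some other myeloid cells, had 3, 49 and 22 counts in AP replicates 1 to 3 and 4, 6 and 1 in CTL. Normalised levels were 0.0740, 1.22 and 0.647 CPM in AP and 0.497, 0.758 and 0.161 in CTL. AP replicate 1 lay below every CTL library and AP replicate 2 above every one. The pooled ratio was 1.30 (95% counting interval 0.687 to 2.72), and it was 0.677 without AP replicate 2. Fitted without a filter on low counts, none of Tpsab1, Fcer1a, Ms4a2 and Hdc passed edgeR's quasi-likelihood test, with adjusted p of 0.236, 0.0979, 0.364 and 0.698.

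**Figure D1:**
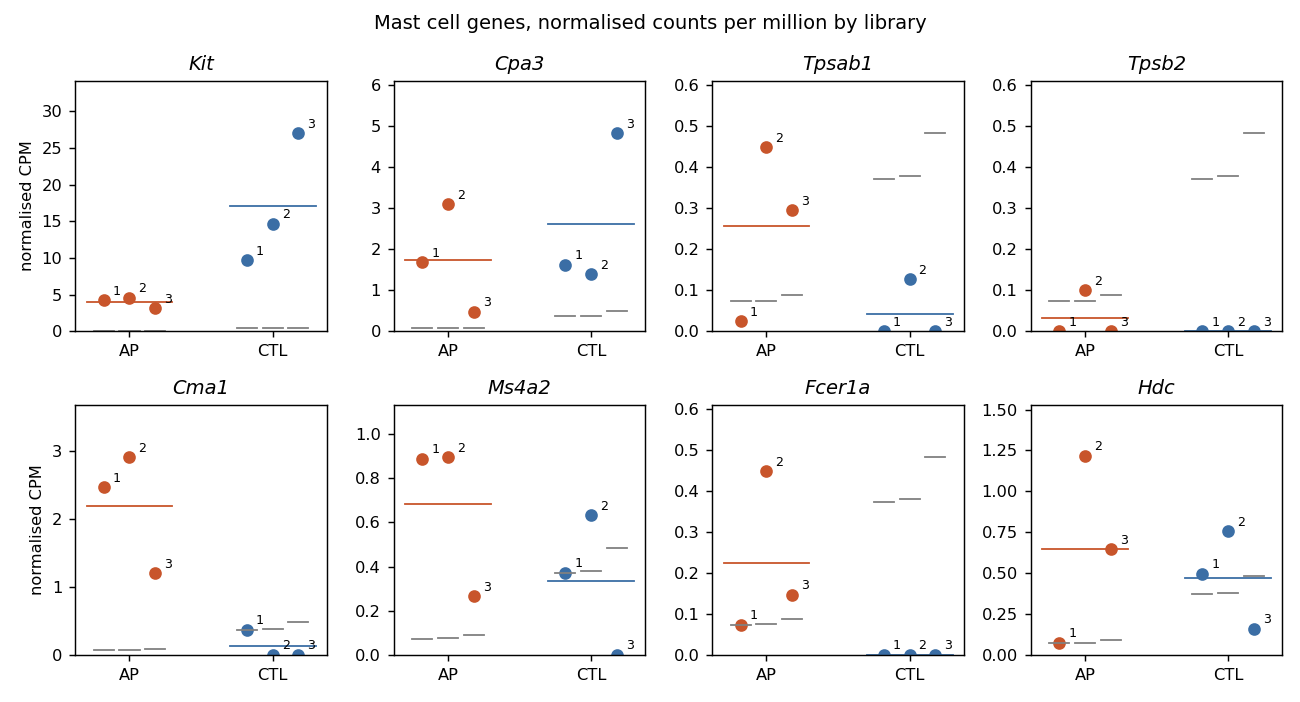
Normalised CPM, counts scaled by the TMM library size, of the 8 measured mast cell genes in each AP and CTL library, each panel with its own axis, replicate numbers beside the points, the group mean as a coloured line and the level of 3 counts in that library as a grey dash. On this scale Cma1 lies higher and Kit lower in all 3 AP libraries, as do 37.8% and 33.1% of all tested genes. Most CTL points of Tpsab1, Tpsb2, Cma1 and Fcer1a lie at 0 under a floor of 0.372 to 0.482.

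Among the AP libraries, replicate 2 had the highest normalised level for all 8 measured members, and it was the highest for 30.1% of all tested genes. For Ms4a2 this was close to a tie, at 36 counts in both AP replicates 1 and 2. As CPM of all reads, Ms4a2 was higher in AP replicate 1 (1.99) than in replicate 2 (1.93). The lowest was replicate 1 or replicate 3, depending on the gene, and both were at 0 for Tpsb2. Without Kit the members summed to 5.20, 9.11 and 3.03 normalised CPM in AP replicates 1 to 3 and 2.86, 2.91 and 4.98 in CTL replicates 1 to 3. AP replicate 3, the lowest of the AP libraries in this sum, also kept the largest share of acinar counts, and the part of this in the members' levels was not tested.

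Shares of counts within 1 library do not depend on scaling, and these shares were chosen after the values had been seen. Cma1 made up 59.5%, 48.5% and 71.9% of the counts of Cma1 plus Cpa3 in AP replicates 1 to 3, against 18.8%, 0% and 0% in CTL replicates 1 to 3. Exact 95% binomial intervals ran from 42.1% to 83.0% over the AP libraries and had upper bounds of 45.6%, 28.5% and 11.6% in CTL replicates 1 to 3. The mean was 60.0% ± 11.7 in AP and 6.25% ± 10.8 in CTL (SD, n = 3 each; two-sided exact permutation p = 0.1, the smallest that 3 against 3 allows, and 0.2 adjusted over 6 shares). Cma1 also made up more of the counts of Cma1 plus Kit, at 36.9%, 39.0% and 27.5% in AP against 3.70%, 0% and 0% in CTL (exact permutation p = 0.1, adjusted 0.2). By contrast, Kit took 71.5%, 59.6% and 87.1% of the counts of Kit plus Cpa3 in AP and 85.7%, 91.3% and 84.8% in CTL, and these groups overlapped (exact permutation p = 0.3, adjusted 0.36). Ms4a2 took 34.6%, 22.5% and 36.0% of the counts of Ms4a2 plus Cpa3 in AP and 18.8%, 31.2% and 0% in CTL, again with overlap (exact permutation p = 0.2, adjusted 0.3).

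**Figure D2:**
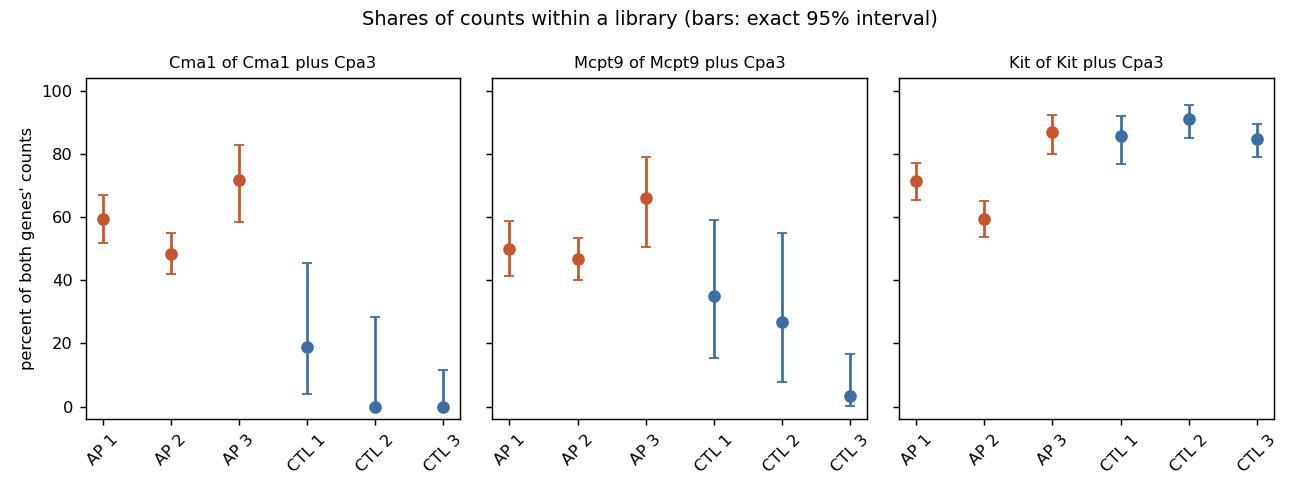
Share in percent of 1 gene in the summed counts of 2 genes in each library, AP libraries at the left and CTL libraries at the right, with exact 95% binomial intervals for counting error only. The share of Cma1 beside Cpa3 is 48.5% to 71.9% in AP and at most 18.8% in CTL, while the shares of Kit beside Cpa3 overlap.

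Other granule genes held few counts for the chymases and many for genes shared with other leukocytes. Of 18 listed, 11 were found and 4 tested, of which 3 rose and 1 fell, beside 34.1% and 30.5% of all tested genes. With library totals all 4 were higher, beside 88.2% of all tested genes. Mcpt9, a rat mast cell protease of the chymase locus, had 68, 109 and 31 counts in AP and 7, 4 and 1 in CTL, and rose by edgeR's quasi-likelihood test (log2 fold change 1.73 ± 0.632, adjusted p = 0.0398). This call ended without AP replicate 1 (1.76, adjusted p = 0.0712) or 2 (1.27, 0.126) and without CTL replicate 2 (1.69, 0.106) or 3 (1.36, 0.114), and the value was 2.33 without CTL replicate 1. Mcpt9 took 50%, 46.8% and 66.0% of the counts of Mcpt9 plus Cpa3 in AP and 35.0%, 26.7% and 3.23% in CTL, with no overlap (exact permutation p = 0.1, adjusted 0.2). Exact 95% binomial intervals had upper bounds of 59.2%, 55.1% and 16.7% in CTL replicates 1 to 3. Those of CTL replicates 1 and 2, on 20 and 15 counts, lay above the shares of AP replicates 1 and 2. Srgn, the proteoglycan core of granules in mast cells and other blood cells, rose by 3.14 ± 0.196 on the log2 scale, and Ndst2, a heparin-modifying enzyme expressed in many tissues, by 0.99 ± 0.127. Slc18a2, the vesicular monoamine transporter that loads histamine and is also found in islets, fell by 0.68 ± 0.236, a call that ended with the replicate number as a block (adjusted p = 0.0617), without a filter (0.051) and without AP replicate 1 or 2 or CTL replicate 1 or 2 (0.0674 to 0.098), and it was at 1.48 with library totals.

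Mcpt1l1, a gene of the same chymase locus for which RefSeq records Mcpt1 as an older name, was singled out after its values were seen. It had 14, 126 and 9 counts in AP replicates 1 to 3 and 6, 4 and 3 in CTL. Most of the AP counts lay in replicate 2, and the normalised levels of 0.345, 3.13 and 0.265 CPM in AP overlapped those of 0.745, 0.505 and 0.482 in CTL. Its share of the counts of Mcpt1l1 plus Cpa3 was 17.1%, 50.4% and 36.0% in AP and 31.6%, 26.7% and 9.09% in CTL, with overlap (exact permutation p = 0.4, adjusted 0.4). Reads could have been split among the close copies of this chymase family. At most 1 count was found in any library for Mcpt4, Mcpt1l3, Mcpt4l1, Tpsg1, Prss34 and Ctsg.

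Over 7 lists of other genes of mast cell development, signalling and mediators, 77 of 89 genes were found and 58 tested, of which 41 rose, 6 fell and 11 were not called, where 34.1% of all tested genes were called higher and 30.5% lower. With library totals 56 were called higher, 1 lower and 1 not at all, where 88.2% of all tested genes were called higher and 4.32% lower. Their median log2 fold change was 2.32, beside 0.07 over all tested genes, and with library totals it was 4.47 beside 2.25. Many of these genes are also expressed by macrophages, neutrophils and lymphocytes. All 7 macrophage markers rose in the same libraries, and their summed level was 5160 to 5330 normalised CPM in AP and 154 to 188 in CTL. Among them Lyz2 rose by 5.96 ± 0.277, Cd68 by 5.48 ± 0.269 and Csf1r by 4.22 ± 0.212 on the log2 scale. Of the 4 tested neutrophil markers all rose, with Csf3r at 7.64 ± 0.427, and the summed level was 61.3 to 140 normalised CPM in AP and 2.23 to 3.16 in CTL. The part of these cells in the pathway genes was not tested.

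Of 17 tested genes of the IgE receptor's signalling, 16 rose and 1 fell, beside 34.1% and 30.5% of all tested genes, with a median log2 fold change of 4.63. With library totals all 17 were higher, beside 88.2% of all tested genes. Fcer1g, the gamma chain that the IgE receptor shares with the IgG receptors of macrophages, was counted both here and among the receptors. It had 7380, 9944 and 7136 counts in AP and 43, 57 and 55 in CTL (log2 fold change 4.91 ± 0.218). The chain was thus plentiful in AP libraries in which the alpha chain Fcer1a had 3 to 18 counts. The kinase gene Btk (4.96 ± 0.199) and the adaptor gene Lcp2 (4.63 ± 0.202) rose as well. Plcg1, a phospholipase found in many cell types, was the exception and fell by 0.85 ± 0.165 on the log2 scale (1.32 with library totals).

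Of 10 tested receptors known on mast cells, 6 rose, 1 fell and 3 were not called, where 34.1% of all tested genes rose and 30.5% fell. With library totals 9 were higher and 1 lower, beside 88.2% and 4.32% of all tested genes. The anaphylatoxin receptor gene C3ar1 (log2 fold change 5.92 ± 0.283) and the leukotriene receptor gene Cysltr1 (3.55 ± 0.221) rose with Fcer1g, and both are also macrophage genes. Ptger3, a prostaglandin receptor, fell by 4.93 ± 0.709. Il1rl1, the receptor for IL-33, chosen after its values were seen, had 561, 743 and 321 counts in AP and 51, 14 and 23 in CTL and rose by 1.82 ± 0.421 (adjusted p = 0.00514 by edgeR's quasi-likelihood test).

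Of 9 tested transcription factor genes of the mast cell lineage, 5 rose, 1 fell and 3 were not called. Of all tested genes, 34.1% rose and 30.5% fell. With library totals all 9 were higher, beside 88.2% of all tested genes. Spi1 (log2 fold change 4.71 ± 0.174), Runx1 (4.60 ± 0.253) and Lyl1 (4.67 ± 0.346), which act in several blood lineages, rose. Gata2, needed for mast cell and basophil identity and chosen after its values were seen, had 62, 93 and 54 counts in AP and 13, 6 and 16 in CTL, and did not pass the test (0.17 ± 0.452, adjusted p = 0.766 by edgeR's quasi-likelihood test), whereas it was at 2.34 with library totals (adjusted p = 0.000942). Mitf rose by 1.26 ± 0.153, and it is also expressed by macrophages.

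The factors that feed or attract mast cells moved in both directions on the TMM scale. Of 8 tested, 6 rose and 1 fell, beside 34.1% and 30.5% of all tested genes. With library totals all 8 were higher, beside 88.2% of all tested genes. Kitlg, the ligand of KIT, had 1139, 1070 and 760 counts in AP and 450, 370 and 216 in CTL, and fell by 0.84 ± 0.182 on the log2 scale (adjusted p = 0.0038 by edgeR's quasi-likelihood test), but rose by 1.35 with library totals (adjusted p = 0.000173). Receptor and ligand therefore both fell relative to the middle gene, and neither fell as a share of reads. Il33, an alarmin of stromal cells that activates mast cells, rose by 3.62 ± 0.184. Tgfb1 (log2 fold change 3.85 ± 0.134), the chemokine gene Ccl2 (6.32 ± 0.520) and Cxcl12 (0.88 ± 0.184) rose too. Il10 had 51, 96 and 78 counts in AP and 1, 0 and 0 in CTL, a ratio of 43.5 (95% counting interval 7.73 to 1730). Without CTL replicate 2 this ratio was 28.0, and without CTL replicate 1, which held its only CTL count, Il10 was at least 9.24-fold higher. Ccl5 rose by 2.54 ± 0.865, a call that ended with the replicate block (adjusted p = 0.0562) and without AP replicate 2 or 3 or CTL replicate 1 or 3 (0.0520 to 0.0874), and it was at 3.22 without CTL replicate 2. The cytokines that expand mast cells were hardly seen, since Il3, Il4, Il9 and Il13 had at most 3 counts in any library.

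Among genes that handle or sense histamine, 5 of 10 were tested, of which 1 rose and 2 fell on the TMM scale, beside 34.1% and 30.5% of all tested genes. With library totals 4 of the 5 were higher and none lower, beside 88.2% and 4.32% of all tested genes. Hrh3, a histamine receptor best known from neurons, had 77, 43 and 23 counts in AP and 0, 2 and 0 in CTL, a ratio of 13.8 (95% counting interval 3.76 to 115, adjusted p = 0.00909 by edgeR's quasi-likelihood test). The ratio of Hrh3 was 8.81 without CTL replicate 1, and Hrh3 was at least 5.93-fold higher without CTL replicate 2. Slc29a4, a transporter that takes up monoamines, fell by 1.93 ± 0.436 on the log2 scale and was at 0.22 with library totals. No library held a count of Hnmt, which breaks down histamine in cells, or of the receptor gene Hrh4. For lipid mediators, which mast cells share with macrophages and neutrophils, 5 of 7 tested genes rose and none fell on the TMM scale. All 7 were higher with library totals, beside the same 88.2% of all tested genes. On the TMM scale Alox5ap was at 3.25 ± 0.171, Pla2g4a at 4.16 ± 0.415 (4.93 without CTL replicate 1) and Lta4h at 1.27 ± 0.138.

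**Figure D3:**
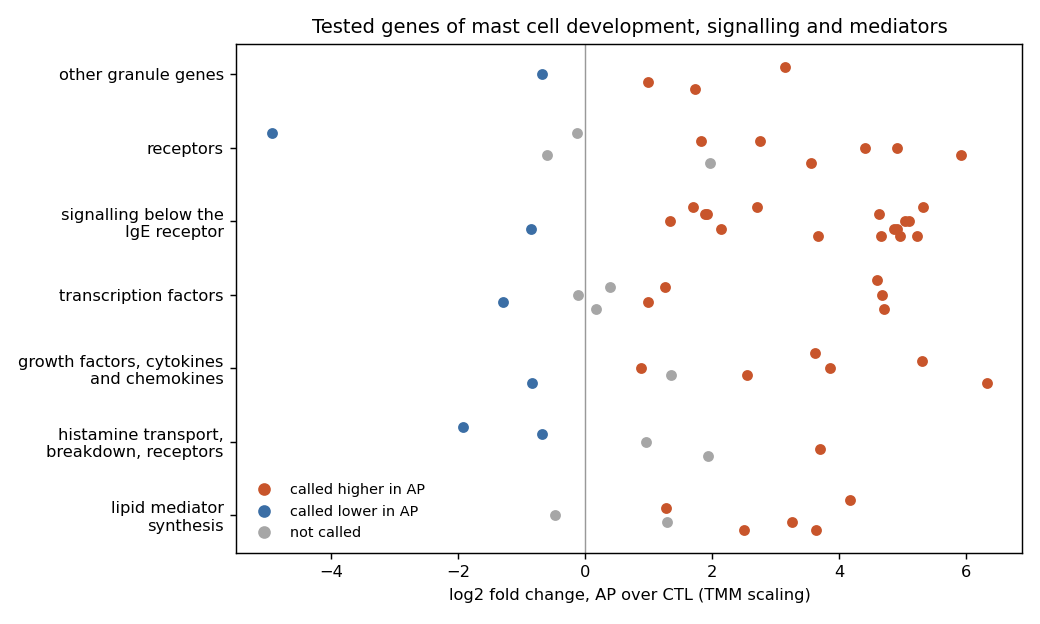
Log2 fold change, AP over CTL, with TMM scaling, of each tested gene in the 7 lists of mast cell pathway genes, coloured by its call at an adjusted p of 0.05. Of the genes of IgE receptor signalling 16 of 17 lie at the right as called higher and 1, Plcg1, is called lower. Of all tested genes 34.1% are called higher and 30.5% lower. With library totals all 17 are higher, beside 88.2% of all tested genes.

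Because basophils and eosinophils share genes with mast cells, their markers are given as well. Of 9 listed, 7 were found and 3 tested, and all 3 rose with both scalings. Of all tested genes, 34.1% rose on the TMM scale and 88.2% with library totals. Ccr3, the eotaxin receptor, had 189, 502 and 69 counts in AP and 3, 5 and 3 in CTL (log2 fold change 3.68 ± 0.808, and 2.74 without AP replicate 2), and its highest AP library was replicate 2. Il3ra (2.77 ± 0.275) and Csf2rb (6.74 ± 0.379), receptor chains shared with macrophages, rose too. The basophil genes Mcpt8 and Cd200r3 were not found by symbol and so were not measured. Of the defining basophil genes listed, only Prss34 was found, at 1 count, in AP replicate 3, which does not show whether basophils were absent. Epx of eosinophils had 6, 5 and 4 counts in AP and 0, 2 and 1 in CTL, and Prg2 had 1, 0 and 5 in AP and none in CTL. Il5ra had 7, 23 and 5 counts in AP and none in CTL. The bound on its ratio was 2.26 with CTL set at 3 counts, and the exact 95% counting interval began lower, at 1.74. The part of these cells in the levels of Cpa3, Ms4a2, Fcer1a and Hdc was not tested.

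Of 9 listed genes of other cells that carry KIT, 5 were tested, of which 2 rose and 2 fell on the TMM scale, beside 34.1% and 30.5% of all tested genes. With library totals 4 were higher and 1 lower, beside 88.2% and 4.32% of all tested genes. Ano1, the chloride channel of interstitial pacemaker cells and of acinar cells, fell by 3.52 ± 0.294 on the log2 scale, and Etv1, a factor of pacemaker cells, was not called (0.50 ± 0.459), but was at 1.28 and called without CTL replicate 1 (adjusted p = 0.0197) and at 2.68 with library totals (adjusted p = 0.000493). The melanocyte genes Dct, Mlana and Tyrp1 had at most 2 counts in any library, and Pmel fell by 1.12 ± 0.372, a call that ended in 5 of the 6 fits without 1 library, without a filter and with the replicate block, and turned to 1.05 with library totals. The progenitor and stromal gene Cd34 rose by 0.79 ± 0.227 (0.65 and not called without CTL replicate 2, adjusted p = 0.0582) and the dendritic and progenitor gene Flt3 by 3.07 ± 0.486. The part of these cells in the level of Kit was not tested.

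**Figure D4:**
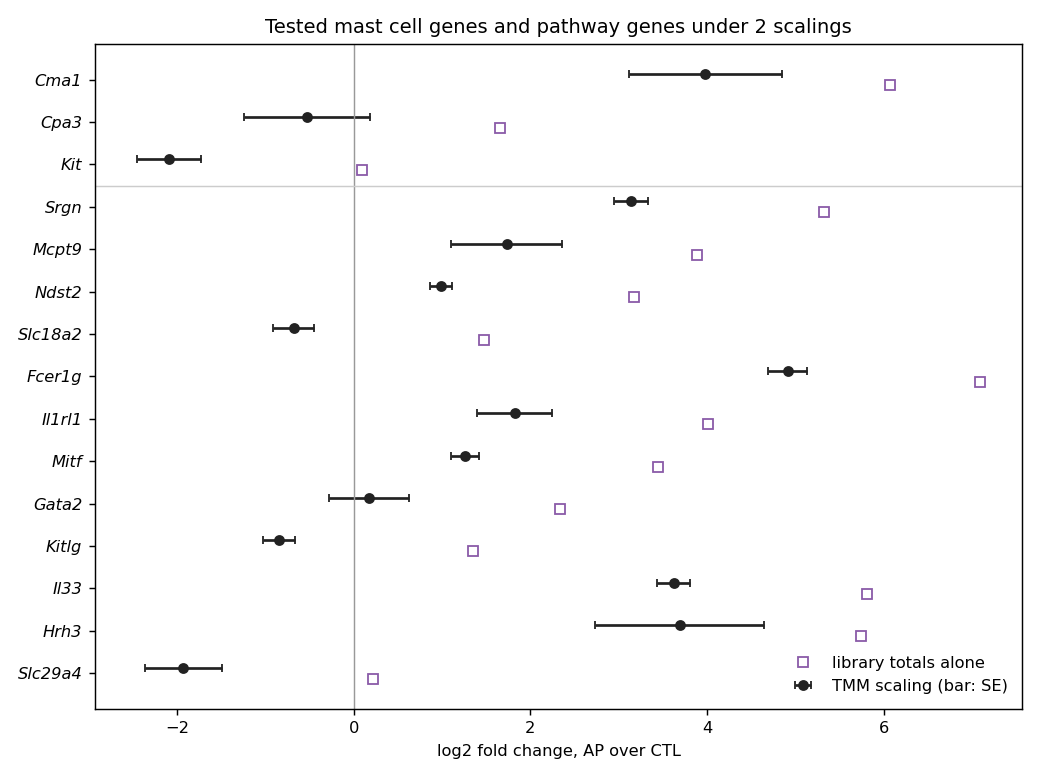
Log2 fold change, AP over CTL, of the 3 tested mast cell genes (above the grey line) and 12 pathway genes with TMM scaling (filled, with SE) and with library totals alone (open squares). Kit moves from -2.09 to 0.09 and Kitlg from -0.84 to 1.35 between the scalings, while Cma1 is at 3.98 and 6.07.

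Likeness of pattern was measured over the 6 libraries. Taking the mean log2 normalised CPM of Cma1 and Cpa3, the tested members other than Kit, the highest Pearson correlations among 9707 genes were those of Cd34 (0.993), Htra3 (0.992), Matn2 (0.990), Medag (0.985) and Antxr1 (0.978). The 2 averaged genes differed, with log2 fold changes of 3.98 for Cma1 and -0.53 for Cpa3. A likeness to their mean is therefore not a likeness to either gene. These 6 points fall into 2 groups of 3 libraries and share their depths, so the correlations describe the libraries and no p is given. Levels of Cd34 were 36.8, 38.7 and 23.1 normalised CPM in AP and 22.2, 15.2 and 19.8 in CTL, with AP replicate 2 the highest. The other 4 had log2 fold changes of 0.63 to 1.56. Calls ended without 1 library for Htra3 (adjusted p of up to 0.0909) and Matn2 (up to 0.0588).

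Markers of the other cell types in the same libraries moved in several directions on the TMM scale. On that scale 34.1% of all tested genes were called higher and 30.5% lower. All 5 stromal markers rose, with a summed level of 2930 to 6970 normalised CPM in AP and 724 to 932 in CTL. So did 3 of 4 tested T and natural killer cell markers and both tested B cell markers. The B cell genes Cd79a and Ms4a1 had 0 counts in CTL, so their calls rest on an undetected group. With CTL set at 3 counts they were at least 11.6-fold and 7.09-fold higher. These bounds were 7.14 for Cd79a without AP replicate 2 and 4.52 for Ms4a1 without CTL replicate 1. Endothelial markers rose in 1 and fell in 1 of 4 cases, duct markers rose in 2 and fell in 1 of 3, the 4 islet markers and 1 adipocyte marker were not called, and all 5 acinar markers fell. With library totals all 4 endothelial, 3 duct and 4 islet markers were higher and the acinar markers still lower. With that scaling 88.2% of all tested genes were called higher and 4.32% lower. On the TMM scale the calls of Nkg7, Sox9 and Kdr each ended in 3 of the 6 fits without 1 library, with adjusted p of 0.0512 to 0.0707 for Nkg7 (without AP replicate 3 or CTL replicate 1 or 3), 0.0810 to 0.0869 for Sox9 (without AP replicate 1 or CTL replicate 1 or 3) and 0.0599 to 0.0910 for Kdr (without AP replicate 1 or 3 or CTL replicate 1). Without CTL replicate 1, Ins1 was called higher (0.71, adjusted p = 0.0321) and Adipoq lower (-2.43, adjusted p = 0.0159), and the DESeq2 Wald test also called Adipoq lower (-1.98, adjusted p = 0.0189). The part of these cells in the members' levels was not tested.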

How the data were processed

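Per the labels' protocols, poly(A) RNA of rat pancreas was enriched with oligo(dT) beads, fragmented and sequenced. The authors deposited whole-number counts of reads per gene, which are not normalised. Per the submitters' processing notes, FastQC, STAR, featureCounts and DESeq2 and build mRatBN7.2 were used, while no source used here gives versions, the strand setting or the treatment of reads with several matches. Of 23096 rows, 3110 without a gene name (1.41% to 2.10% of counts in AP, 5.48% to 7.69% in CTL) were left out, and rows sharing a symbol were summed. Libraries within a group differed beyond counting error in every pair (mean chi-square of 44.8 to 170 a gene).

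The 3 AP and 3 CTL samples were compared with the quasi-likelihood test of edgeR 4.0.16 in R 4.3.3, after TMM scaling and edgeR's default low-count filter, and p-values were adjusted by Benjamini-Hochberg over all 13240 tested genes. Genes were called at an adjusted p of 0.05. Each SE is the size of the log2 fold change divided by the root of its F value. All adjusted p-values come from this test unless another tool is named. Tested on simulated counts of 13238 genes, the fit recovered 54% of 100 genes changed 2-fold and 100% of 100 changed 4-fold. Every simulated gene had the same scatter, and the changed genes were not taken from the rarest. No shift in composition like that of the acinar genes was simulated. These percentages therefore do not give the power for the members. Members under the filter and genes with 3 CTL counts or fewer are given as pooled ratios with exact 95% intervals, or as bounds set by 3 counts in the whole group, and floors on levels use 3 counts per library. A fold given as at least sets CTL at 3 counts and takes the AP counts as exact, so it is not a lower confidence limit. Intervals and floors cover counting error only. The members and lists were chosen with earlier results of these data known. Named genes were all members, the 3 genes of each list with the lowest p, whole lists of basophil and eosinophil genes and of other KIT-bearing cells, called genes of 3 lists, and the 5 genes with the most similar pattern. A gene of the list of other KIT-bearing cells is not reported here. DESeq2 1.42.0 was an alternative. Sequences are from RefSeq, build GRCr8, and of 19780 symbols 16799 matched its gene table.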

Additional observations from a re-analysis of the deposited data

How the results depend on the processing

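Kit and Cma1 were the 2 mast cell genes called in every fit that left out 1 library, with DESeq2 size factors, with the DESeq2 Wald test and without a filter. With library totals alone 1 member was called, Cma1, with none lower. With a filter of 50 counts in 3 samples 1 was called, Kit, and 0 were called higher, since Cma1 was no longer tested. The same scaling by library totals called 11680 of all tested genes higher and 572 lower, and 1 of the other mast cell genes lower. With library totals the log2 fold change changed sign for Kit (0.09), Cpa3 (1.66), Slc18a2 (1.48), Slc29a4 (0.22), Kitlg (1.35), Pmel (1.05) and for the duct, endothelial, islet and fat markers Cftr (1.06), Kdr (1.59), Sst (1.86), Gcg (1.82) and Adipoq (0.24), because the median of all genes moved by 2.18. Over the fits without 1 library, Cpa3 ran from -1.24 to 0.23 (without CTL replicate 3), Sst from -0.66 to 0.31 and Gcg from -0.88 to 0.36 (both without CTL replicate 1), with Gcg at 0.00 without AP replicate 2, and none was called. The cause was not tested.

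Same-numbered AP and CTL libraries did not visibly deviate together (correlations of -0.0286, 0.0325 and -0.107). Differently numbered ones had correlations of -0.115 to 0.137. With 3 libraries per group this cannot exclude a pairing by number. With the replicate number as a block, 2 members, 45 other mast cell genes and 7904 genes in all were called. Depth limits Tpsab1, Tpsb2, Fcer1a, Ms4a2 and Hdc, for which differences were not detectable or rest on few counts.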
